A study of Mus musculus with 62 samples.

Results

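The 10 genes described here code for proteins of the cardiac muscle ankyrin-repeat family (Ankrd1, Ankrd2 and Ankrd23), LIM-domain proteins of the sarcomere (Csrp3, Fhl1, Fhl2 and Pdlim5), the titin cap protein (Tcap) and the actin crosslinkers alpha-actinin 1 and 2 (Actn1 and Actn2). They were chosen by symbol, as all 10 rows bearing these names among the 47643 gene symbols of the deposited table. The names were picked with differences between CAC and Con hearts at week 8 known, so the week 8 differences between CAC and the other arms are given as a description without a test. Other differences that use the Con libraries of week 8 are likewise a description. All 10 were among the 12541 symbols kept for testing, each with 1 TPM or more in 5 or more libraries. Ankrd2 passed that filter only through the CAC libraries and 1 other library, so that its difference was bound to appear, and its values are given as a description without a test.

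Hearts came from female mice that were 2 months old per the labels and had been injected with cachectic melanoma cells (CAC), with non-cachectic melanoma cells (NCAC), or with no tumour cells in a mock injection (Con). They were taken 2, 4, 6 and 8 weeks later, which gives 12 groups of 5 libraries, except CAC at week 8 with 7 libraries and Con at week 4 with 4, and 61 libraries in all. Each library carries its own heart number, and the spread between such libraries is what the p-values rest on. The labels give the strain of every animal as C57BL6/J, whereas the design text names NCI Ath/nude mice. The names of the melanoma lines are not given, and the lines differ between the CAC and NCAC arms, so wasting and cell line cannot be told apart. Cachexia is a loss of muscle and fat mass that accompanies many tumours.

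Heart muscle cells sense load at the Z-disc, where actin filaments of neighbouring sarcomeres are crosslinked by alpha-actinin and where titin is anchored by Tcap. The ankyrin-repeat proteins bind titin in the elastic part of the sarcomere and can also enter the nucleus, and Ankrd1 is widely used as a marker of mechanical and hypertrophic stress in the heart. Csrp3 (muscle LIM protein) and Tcap form a complex at the Z-disc, Fhl1 and Fhl2 bind titin and signalling enzymes, and Pdlim5 (ENH) links kinases to alpha-actinin. Actn2 is the alpha-actinin of striated muscle, and Actn1 is the form found at adhesions and stress fibres of many cell types.

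Promoter windows of RefSeq (GRCm38.p6) were found for 9 of the 10 genes, with 14 windows from 250 bases before to 50 bases after a start. Shown here are 4 windows that hold letters read by factors known for muscle promoters, from 2 ankyrin-repeat genes that rose and from the 2 Fhl genes, whose ratio changed. Capitals mark the M-CAT element CATTCC, read by TEAD factors, in the Ankrd windows and the CArG box, read by serum response factor, in the Fhl windows. Each is written 5′ to 3′ on the strand of its gene, and which start is used in these hearts was not measured.
Ankrd1 (chr19:36119795-36120094, minus strand): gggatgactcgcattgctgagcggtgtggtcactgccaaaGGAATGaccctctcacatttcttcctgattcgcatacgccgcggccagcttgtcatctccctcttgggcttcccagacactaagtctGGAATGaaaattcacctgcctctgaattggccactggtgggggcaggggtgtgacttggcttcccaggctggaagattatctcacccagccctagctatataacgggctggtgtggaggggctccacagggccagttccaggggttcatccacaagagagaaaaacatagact
Ankrd23, second start (chr1:36535690-36535989, minus strand): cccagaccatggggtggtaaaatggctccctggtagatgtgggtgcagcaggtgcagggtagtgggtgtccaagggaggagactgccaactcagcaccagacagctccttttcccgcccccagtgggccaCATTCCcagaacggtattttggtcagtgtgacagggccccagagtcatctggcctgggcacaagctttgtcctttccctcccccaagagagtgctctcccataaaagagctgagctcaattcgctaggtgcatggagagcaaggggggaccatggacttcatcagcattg
Fhl1, first start (chrX:56779433-56779732, plus strand): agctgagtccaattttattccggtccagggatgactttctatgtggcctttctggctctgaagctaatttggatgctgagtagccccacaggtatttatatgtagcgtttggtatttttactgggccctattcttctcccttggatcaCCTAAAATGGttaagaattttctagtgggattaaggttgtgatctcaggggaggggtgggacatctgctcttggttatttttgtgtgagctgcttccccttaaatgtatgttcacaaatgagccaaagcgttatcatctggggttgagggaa
Fhl2, second start (chr1:43163912-43164211, minus strand): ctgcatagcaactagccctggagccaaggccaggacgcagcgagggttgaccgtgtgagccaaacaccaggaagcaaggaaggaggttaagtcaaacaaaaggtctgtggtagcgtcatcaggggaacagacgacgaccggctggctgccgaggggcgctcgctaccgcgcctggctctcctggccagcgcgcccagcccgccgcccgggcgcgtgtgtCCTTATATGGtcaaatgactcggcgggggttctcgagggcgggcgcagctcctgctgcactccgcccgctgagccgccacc
The Ankrd1 window holds 2 M-CAT elements on its reverse strand, at positions -210 to -205 and -123 to -118 from the start. The Ankrd23 window holds 1 at -120 to -115, and its CATTCC overlaps the letters TTCCCAGAA, which match the STAT motif TTCNNNGAA on both strands. CATTCC on either strand was found in 14.7% of 32851 mouse promoters of the same length and TTCNNNGAA in 8.3%. A CArG box was found in 1.63% of these promoters, and among the 10 genes in 3 windows of 2 genes, Fhl1 and Fhl2. The second Fhl2 start has it at -31 to -22. Neither motif was found in the Ankrd2 window, whose TATAAA lies at -29 to -24, as in 13.6% of promoters for that motif on either strand. These matches are letters in a window and say nothing of binding.

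All 8 cardiomyocyte markers examined were present in every group, with a summed level of 22226 to 38919 TPM. TPM states each gene as a length-corrected share of its library. Mitochondrially encoded transcripts took up 51.2% ± 1.77 of that total (SD, n = 5) in CAC at week 6 and 59.3% ± 1.59 (SD, n = 5) in Con, and as deposited the median tested gene stood 0.21 higher on the log2 scale in CAC at week 6. Differences are as deposited unless called rescaled, which means after dividing each library by its median of ratios, a step that brings the median gene to 0. Of all tested genes at week 6, CAC exceeded Con in 6339 and was exceeded in 658 as deposited, against 2436 and 2251 rescaled. Relative read depth, recovered from the smallest step between values, was 54 to 112% of the median over the 61 libraries. One CAC library at week 8, replicate 3, stood nearest to the other arms in several of the 10 genes, and the week 8 values are given with and without it. One further Con library of week 4, in which mitochondrial transcripts made up 89.1% of TPM, was left out. In whole-heart RNA, fewer cells of a type and less RNA per cell cannot be told apart.

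**Figure D1:**
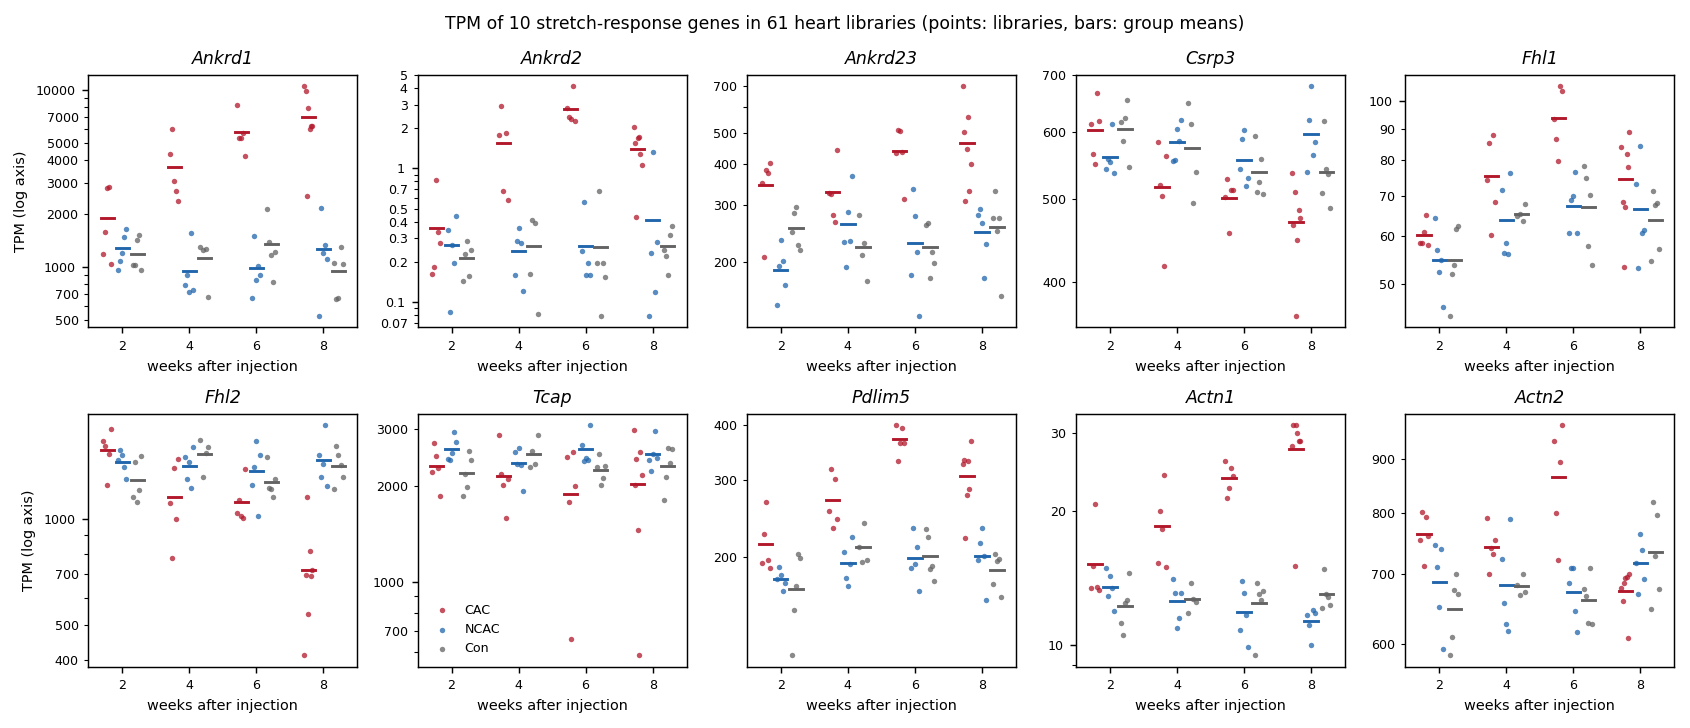
TPM of each gene (log axis) against weeks after injection, with 1 point per library, bars at group means and the arms in colour (CAC red, NCAC blue, Con grey). The 5 CAC libraries of week 6 lie above all 39 NCAC and Con libraries for Ankrd1, Ankrd2, Pdlim5 and Actn1, while 6 of 7 CAC libraries of week 8 lie below all of them for Fhl2.

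The difference between CAC and Con hearts grew from week 2 to week 6 in Ankrd1, Pdlim5 and Actn1, 3 of the 9 genes other than Ankrd2. At week 2 only Actn2 passed the test against Con (1 of 10 members, with 1.84% of all tested genes called) and only Ankrd23 against NCAC (1 of 10, with 0.59% of genes called). At week 4 the same 3 of these 9 members, Ankrd1, Pdlim5 and Actn1, were higher in CAC than in Con (15% of genes called) and than in NCAC (16.5% called). At week 6, 6 of the 9 (Ankrd1, Ankrd23, Fhl1, Pdlim5, Actn1 and Actn2) were higher than in Con, where 55.8% of all genes were called and 50.5% were called higher. The same 6 were higher than in NCAC and Tcap was lower, where 54.5% of genes were called. Both sets of differences share the CAC libraries. Rescaled, 4 of the 9 were higher and 3 lower at week 6 against either arm, with 37.4% (Con) and 40.6% (NCAC) of all genes called. Fhl1 and Actn2 thus lost their calls against both arms, while Csrp3 and Fhl2 gained one, both lower. Tcap gained one against Con, also lower, and kept the one it had against NCAC. The median difference of these 9 genes from Con was 0.28 at week 2, 0.19 at week 4 and 0.49 at week 6, beside 0.10, 0.09 and 0.21 over all tested genes. Rescaled, their median at week 6 was 0.25, the value of Fhl1. All adjusted p-values of single genes are from limma with Benjamini-Hochberg adjustment over all tested genes, differences are on the log2(TPM + 1) scale, and a gene is said to have risen, fallen or been called where its adjusted p was under 0.05.

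The growth of the CAC minus Con difference was itself tested, with an SE that rests on the spread over all 61 libraries, week 8 included. No week 8 mean entered the difference. From week 2 to week 6 it increased in Ankrd1 by 1.57 (SE 0.45, adjusted p = 0.0153), in Pdlim5 by 0.53 (SE 0.17, adjusted p = 0.028) and in Actn1 by 0.61 (SE 0.18, adjusted p = 0.0175), 3 of 9 members, with 13.1% of all genes called. Rescaled, Pdlim5 lost this call (adjusted p = 0.0812), and it was also lost in 7 of 20 refits that each left out 1 library, with adjusted p up to 0.0672. From week 4 to week 6 limma called 0 of the 10, with 0.0797% of genes called, although Pdlim5, Actn1 and Actn2 had an unadjusted p under 0.05. With array quality weights 3 members were called, Ankrd2 counted. The share of all genes called with those weights was not taken, so this count has no background beside it.

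**Figure D2:**
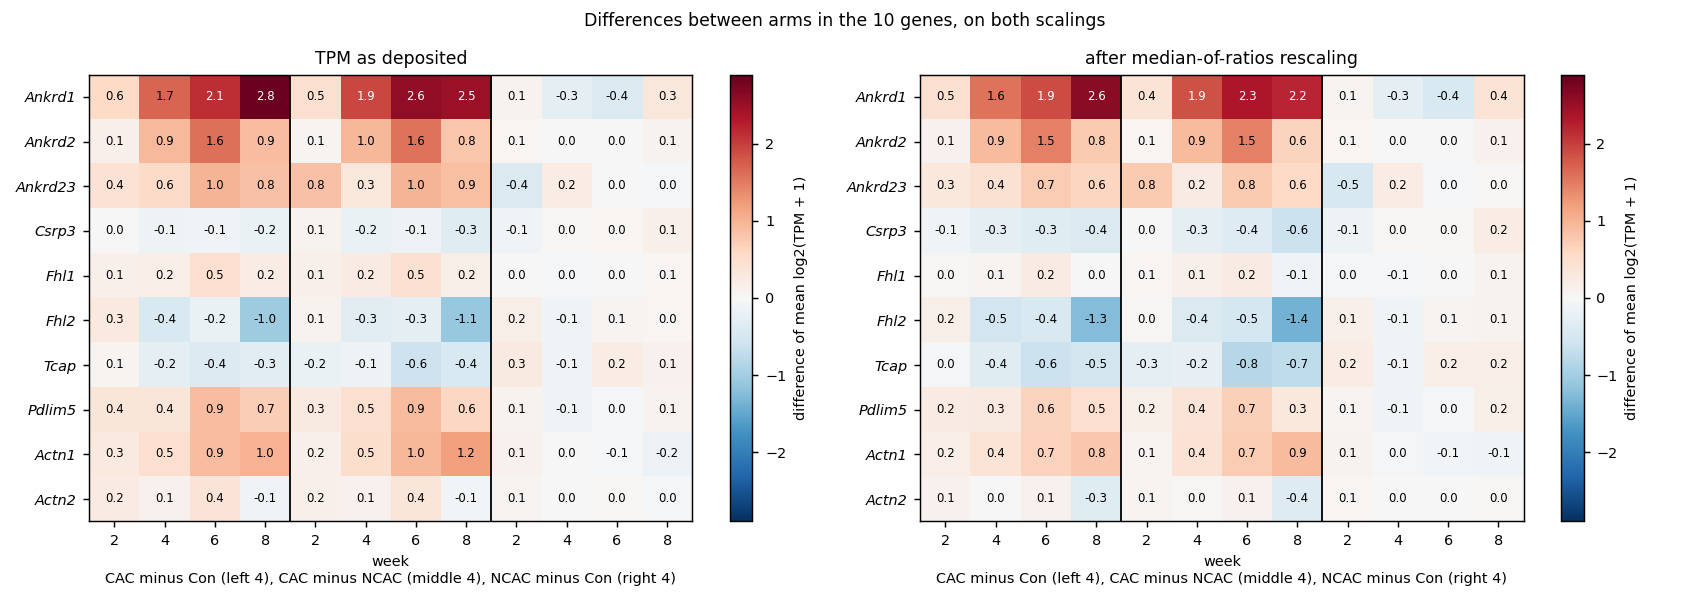
Differences of mean log2(TPM + 1) between arms for each gene (rows) and week (columns), as deposited on the left and rescaled on the right, with red for higher and blue for lower in the first-named arm. Ankrd1 reaches 2.8 against Con at week 8 as deposited and 2.6 rescaled, and Fhl2, Csrp3 and Tcap turn further below 0 after rescaling.

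Ankrd1, which codes for the stress-responsive cardiac ankyrin repeat protein (chromosome 19, 36111961 to 36120099, minus strand, in GENCODE M21 on mm10; ENSMUSG00000024803.9), was the member with the largest difference from Con at weeks 4, 6 and 8 on the log2(TPM + 1) scale. As a ratio of mean TPM, the low transcript Ankrd2 differed more at week 4 (5.95 against 3.29 for Ankrd1) and at week 6 (10.8 against 4.3). At week 4 the 5 CAC libraries held 4359, 5989, 3080, 2697 and 2346 TPM, and the 4 Con libraries 1300, 1254, 1262 and 674. At week 6 the CAC libraries held 8210, 5384, 5369, 5706 and 4229 TPM, and the Con libraries 2129, 1382, 1171, 819 and 1214, with 669 to 1496 TPM in NCAC. Every CAC library from week 4 on lay above the highest of the 39 NCAC and Con libraries, 2160 TPM, and 2 of 5 did so already at week 2. Ankrd1 rose against Con by 1.68 at week 4 (SE 0.34, adjusted p = 4.14e-04) and by 2.14 at week 6 (SE 0.32, adjusted p = 2.28e-07), from 1343 ± 485 to 5779 ± 1470 TPM (SD, n = 5 each). Rescaled, the week 6 difference was 1.90 (adjusted p = 4.12e-06). Against NCAC it rose by 1.95 at week 4 (SE 0.32, adjusted p = 1.49e-05) and by 2.57 at week 6 (SE 0.32, adjusted p = 4.77e-09). At week 2 the difference from Con, 0.57 (SE 0.32, adjusted p = 0.275), did not pass. Of 5 atrial markers, 4 (Myl4, Myl7, Sln and Bmp10) summed to only 0.279 to 3.67 TPM over the 61 libraries. The other, Nppa, the gene of atrial natriuretic peptide, was at 139 to 2192 TPM in CAC and 81 to 647 TPM in Con at week 6, which overlap. At week 8 Nppa was above all Con libraries (96.9 to 251 TPM) in 6 of 7 CAC libraries, and the remaining one, replicate 5, held 68.2 TPM. Its part in the Ankrd1 values was not tested.

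For Ankrd1 at week 8 the CAC libraries held 2528 to 10541 TPM with a median of 6254, and replicate 3 held the lowest value, apart from the other 6, which began at 6028. The difference from Con was 2.83 (SE 0.29) with replicate 3 and 3.06 without it. In the order of the 12 group means, the 4 CAC groups filled the first 4 places from week 8 down to week 2, and each pair of neighbours in that order overlapped in its libraries. Over the 8 groups without CAC the means spanned 944 to 1343 TPM. The genes whose deviations from the group means were most like those of Ankrd1 were Ctps (r = 0.69), a CTP synthase gene, Tmbim1 (r = 0.68) and Serpinb6b (r = 0.66), over 61 libraries and 5171 candidate genes. These correlations share the depth and scaling of the same libraries and are a description.

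Ankrd2, better known from skeletal muscle (chromosome 19, 42036000 to 42045110, plus strand, 5915901 bases from Ankrd1), was a low-abundance transcript here. The 5 CAC libraries of week 6 held 2.83, 2.41, 2.35, 4.14 and 2.28 TPM, equal to 51 to 95 recovered reads, and the Con libraries 0.195, 0.674, 0.0791, 0.197 and 0.154 TPM, equal to 2 to 17 reads. The CAC values lay entirely above those of both other arms. The difference from Con was 0.95 at week 4 (SE 0.19) and 1.59 at week 6 (SE 0.18). Because the added 1 TPM flattens such low values, the week 6 difference became 3.17 with 0.1 TPM added instead. By week 8 the CAC libraries ranged from 0.433 (replicate 3) to 2.04 TPM with a median of 1.56, so that the mean, 1.40 ± 0.529 TPM (SD, n = 7), stood below that of week 6, 2.80 ± 0.779 TPM (SD, n = 5), whereas Ankrd1 stood higher at week 8 than at week 6. The 10 skeletal muscle markers summed to 16.4 to 31.1 TPM in CAC and 18.9 to 35.4 TPM in Con at week 6, and the fast myosin gene Myh4 was at 0 in those CAC libraries. One NCAC library of week 8 held 1.33 TPM of Ankrd2 (36 reads) beside 0.0793 to 0.284 TPM in the other 4, with a skeletal marker sum of 21.5 TPM.

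Ankrd23, the diabetes-related ankyrin repeat protein gene (chromosome 1, 36530188 to 36536883, minus strand), showed a smaller difference at week 6 than Ankrd1 and a call against NCAC at week 2. At week 2 the CAC libraries held 350, 207, 385, 376 and 403 TPM, the NCAC libraries 147, 194, 234, 201 and 169, and the Con libraries 247, 282, 296, 225 and 218. Ankrd23 was higher than in NCAC by 0.84 at week 2 (SE 0.21, adjusted p = 0.0451) but not called against Con (0.41, SE 0.21, adjusted p = 0.238), and the first call was lost in 8 of 10 refits without 1 library, with adjusted p up to 0.166. At week 4 it was not called against either arm (0.55 and 0.33, adjusted p = 0.0828 and 0.279). By week 6 the CAC libraries held 433, 512, 509, 436 and 313 TPM and the Con libraries 259, 264, 178, 214 and 198, with no overlap. The rise was 0.98 (SE 0.21, adjusted p = 1.21e-04) against Con and 0.99 (SE 0.21, adjusted p = 1.07e-04) against NCAC, and rescaled 0.73 against Con (adjusted p = 0.00224). The week 8 CAC libraries ranged from 309 to 699 TPM with a median of 447, against 157 to 330 TPM in Con. Its deviations were most like those of Twf2 (r = 0.79), an actin-capping gene, Tnfrsf12a (r = 0.79), the receptor of the cytokine TWEAK, and Rcan1 (r = 0.79), an inhibitor of calcineurin.

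Of the LIM genes, Csrp3 (muscle LIM protein; chromosome 7, 48830398 to 48848033, minus strand) varied least. At week 6 the CAC libraries held 503, 528, 456, 512 and 513 TPM and the Con libraries 594, 510, 524, 558 and 507. The groups overlapped, and the difference of -0.10 (SE 0.08) was not called as deposited (adjusted p = 0.293) but was -0.34 rescaled (SE 0.10, adjusted p = 0.00342). The call thus depended on the scaling. At week 8 CAC held 365 to 537 TPM with a median of 475, and 5 of 7 libraries lay below all 39 NCAC and Con libraries, whose lowest was 488 TPM. The difference from Con at week 8 was -0.20 (SE 0.07), or -0.22 without replicate 3, and rescaled it was -0.43.

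Fhl1 and Fhl2, which code for proteins built almost wholly of LIM domains, took different courses. Fhl1 (chromosome X, 56731787 to 56793346, plus strand) held 93.5, 86.8, 79.8, 106 and 104 TPM in CAC at week 6 and 78.3, 74.7, 57.9, 70.1 and 53.9 TPM in Con, with no overlap. It rose by 0.49 (SE 0.12, adjusted p = 5.96e-04), which became 0.25 rescaled (adjusted p = 0.0878), so the call rests on the scaling. Against NCAC the rise was 0.47 (SE 0.12, adjusted p = 9.14e-04) and rescaled 0.25 (adjusted p = 0.0827). At week 8 its level in CAC, 74.5 ± 12.3 TPM (SD, n = 7), overlapped that of Con, 63.7 ± 7.29 TPM (SD, n = 5), and the difference changed from 0.21 to -0.01 when rescaled and to 0.29 without replicate 3.

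Fhl2 (chromosome 1, 43123074 to 43196984, minus strand) held 1112, 779, 1399, 1001 and 1485 TPM in CAC at week 4 and 1679, 1322, 1540 and 1600 in Con. Its difference at week 4 was -0.44 (SE 0.17, adjusted p = 0.0615) and rescaled -0.55 (adjusted p = 0.0338). The CAC libraries of week 6 held 1040, 1134, 1019, 1011 and 1391 TPM and the Con libraries 1500, 1226, 1222, 1155 and 1300, so that 4 of 5 CAC libraries lay below all Con libraries. The difference was -0.20 (SE 0.16, adjusted p = 0.279) and rescaled -0.45 (adjusted p = 0.0361). Against NCAC it was -0.29 (SE 0.16, adjusted p = 0.115) and rescaled -0.51 (adjusted p = 0.014). The 7 CAC libraries of week 8 ranged from 412 to 1160 TPM with a median of 697, and all 7 lay below the 5 Con libraries, which ranged from 1218 to 1614. Replicate 3 again stood nearest to Con at 1160 TPM. The week 8 difference was -1.04 (SE 0.15), or -1.17 without replicate 3, the lowest among the 10 genes. The summed cardiomyocyte markers were also lower there, 22226 to 32270 TPM in CAC against 31233 to 38919 TPM in Con, and their part in the Fhl2 values was not tested. Its deviations were most like those of Sh3kbp1 (r = 0.73), Mrm1 (r = 0.71) and Cmss1 (r = 0.71).

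Tcap, which anchors the end of titin at the Z-disc (chromosome 11, 98383811 to 98384953, plus strand), held low values in single CAC libraries. At week 6 the CAC libraries held 2452, 1777, 662, 2551 and 2000 TPM, the NCAC libraries 2676, 2391, 2441, 2412 and 3091, and the Con libraries 2292, 2505, 2008, 2117 and 2312. Replicate 3 held less than any of the 39 NCAC and Con libraries, whose lowest was 1809 TPM. The fall against NCAC was -0.60 (SE 0.24, adjusted p = 0.0334), and leaving out CAC replicate 3, NCAC replicate 1 or NCAC replicate 5 ended the call, with -0.25 and adjusted p = 0.334 without CAC replicate 3. Against Con the difference of -0.39 (SE 0.24, adjusted p = 0.167) was not called as deposited, and rescaled it was -0.63 (adjusted p = 0.049). Without CAC replicate 3 the deposited difference from Con was -0.05 (adjusted p = 0.878). At week 8 one CAC library, replicate 5, held 589 TPM and the other 6 held 1457 to 2997. The difference from Con at week 8 was -0.32 (SE 0.22), rescaled -0.54, and -0.39 without replicate 3.

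The gene most like Tcap over deviations from group means was Dbp (r = 0.87, 61 libraries), followed by Nr1d2 (r = 0.81), both transcription factor genes of the circadian clock system. The same 2 CAC libraries with the lowest Tcap also held the lowest Dbp, 6.89 TPM at week 6 replicate 3 and 10.6 TPM at week 8 replicate 5, against group medians of 58.1 and 85.1 TPM. Without these 2 libraries r was 0.72, and it was 0.72 within the 20 NCAC and 0.70 within the 19 Con libraries. Csrp3, the partner of Tcap, was about equally like Nr1d1, another clock gene (r = 0.64, rescaled 0.58), Herc3 (0.64, rescaled 0.62) and Adck3 (0.64, rescaled 0.69). Whether the clock genes had a part in the Tcap values was not tested.

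**Figure D3:**
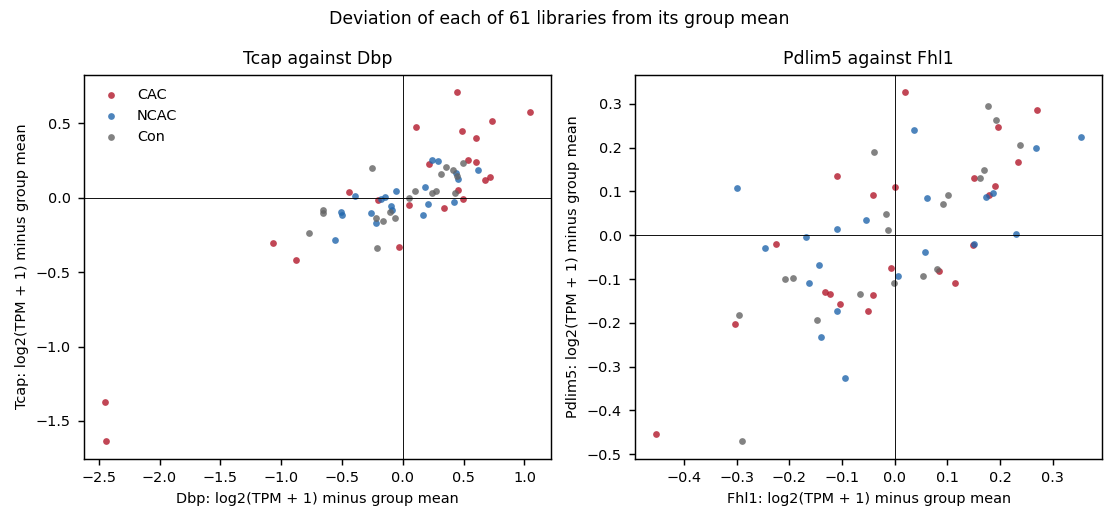
Deviation of each library from its group mean in log2(TPM + 1), Tcap against Dbp on the left and Pdlim5 against Fhl1 on the right, coloured by arm. The 2 CAC libraries at the lower left of the first panel are week 6 replicate 3 and week 8 replicate 5, and r between Tcap and Dbp is 0.91 within CAC, 0.72 within NCAC and 0.70 within Con.

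Pdlim5, the PDZ-LIM protein that holds protein kinase C at alpha-actinin (chromosome 3, 142239590 to 142395696, minus strand), held 400, 332, 365, 395 and 364 TPM in CAC at week 6 and 231, 222, 187, 190 and 176 TPM in Con. All 5 CAC libraries lay above the highest of the 39 NCAC and Con libraries, 239 TPM. It rose by 0.88 against Con (SE 0.12, adjusted p = 2.55e-08; rescaled 0.64, adjusted p = 7.78e-06) and by 0.91 against NCAC (SE 0.12, adjusted p = 1.57e-08). The smaller rise at week 4 was 0.36 against Con (SE 0.13, adjusted p = 0.0448), a call that ended rescaled (adjusted p = 0.141) and in 5 of 9 refits without 1 library, whose adjusted p reached 0.157, and 0.47 against NCAC (SE 0.12, adjusted p = 0.00387). At week 8 the CAC libraries ranged from 221 to 369 TPM with a median of 327, and the mean of 307 ± 48.9 TPM (SD, n = 7) stood below the 371 ± 27.4 TPM (SD, n = 5) of week 6. Among its most similar genes were Erlec1 (r = 0.77), Osbpl9 (r = 0.72) and Csnk1a1 (r = 0.71).

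The alpha-actinins differed in level and in course. Actn1 (chromosome 12, 80167547 to 80260371, minus strand) was at 9.48 to 14.9 TPM in the 39 NCAC and Con libraries, and the striated muscle form Actn2 (chromosome 13, 12269426 to 12340760, minus strand) at 586 to 819 TPM. At week 6 the CAC libraries held 26, 21.5, 22.6, 25.1 and 24.1 TPM of Actn1 and the Con libraries 9.48, 13.8, 13, 12.6 and 13.2. Actn1 rose by 0.49 at week 4 (SE 0.13, adjusted p = 0.00885) and by 0.90 at week 6 against Con (SE 0.13, adjusted p = 7.85e-08; rescaled 0.66, adjusted p = 9.02e-07), and by 0.96 at week 6 against NCAC (SE 0.13, adjusted p = 2.08e-08). At week 8 the CAC libraries held 28.1 to 31.3 TPM except replicate 3 at 15.1, and the difference from Con was 1.01 (SE 0.12) with it and 1.14 without it. Summed macrophage markers (7 genes) were 261 to 461 TPM in CAC and 95.8 to 164 TPM in Con at week 6, and summed fibroblast markers (6 genes) 710 to 1112 TPM against 432 to 534, and their part in the Actn1 values was not tested. Its most similar genes were Cltb (r = 0.85), Gramd1a (r = 0.85) and Ifitm2 (r = 0.83).

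Actn2 held 936, 800, 721, 894 and 968 TPM in CAC at week 6 and 677, 666, 629, 709 and 627 TPM in Con. It rose by 0.38 (SE 0.07, adjusted p = 8.86e-06), which became 0.13 rescaled (adjusted p = 0.144). At week 2 all 5 CAC libraries (712 to 801 TPM) lay above the 5 Con libraries (586 to 700 TPM), with a rise of 0.24 (SE 0.07, adjusted p = 0.0499), and this call was lost rescaled (0.13, adjusted p = 0.516) and in 7 of 10 refits without 1 library, with adjusted p up to 0.223. At week 8 the CAC libraries, 608 to 700 TPM, overlapped those of Con, 648 to 819 TPM, and the difference was -0.12 (SE 0.06) as deposited, with or without replicate 3, and -0.34 rescaled. Its most similar genes were Naca (r = 0.67), the Z-disc gene Ldb3 (r = 0.66) and Ipo5 (r = 0.66).

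Ratios of related genes within a library do not depend on how the library is scaled. The 3 ratios were chosen after the values were seen and are given as a description without a test. The ratio of Ankrd1 to Ankrd23 was 13.3 ± 3.45 in CAC at week 6 and 6.0 ± 1.63 in Con (SD, n = 5 each), and all 5 CAC libraries lay above all Con libraries. The ratio of Fhl2 to Fhl1 was 12 ± 1.62 against 19.5 ± 3.28 (SD, n = 5 each), lower in all 5 libraries, and that of Actn1 to Actn2 was 0.0278 ± 0.00236 against 0.0189 ± 0.00305 (SD, n = 5 each), higher in all 5. Against NCAC at week 6 the CAC libraries lay wholly apart for the first and last ratio, and 4 of 5 lay below all NCAC libraries for Fhl2 to Fhl1. At week 4 the ratio of Ankrd1 to Ankrd23 was 11.7 ± 4.81 in CAC and 3.88 ± 1.88 in NCAC (SD, n = 5 each), and 4 of 5 CAC libraries lay above all NCAC libraries. Against Con, 4 of 5 also lay above. The other 2 ratios overlapped more at week 4. Against Con and against NCAC alike, 3 of 5 CAC libraries lay below for Fhl2 to Fhl1 and 3 of 5 above for Actn1 to Actn2. At week 2 the CAC libraries overlapped both other arms for all 3 ratios. At week 8 the CAC means were 15.1, 10.2 and 0.0411, or 16.3, 8.33 and 0.0443 without replicate 3, against 3.99, 22.3 and 0.0177 in Con.

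**Figure D4:**
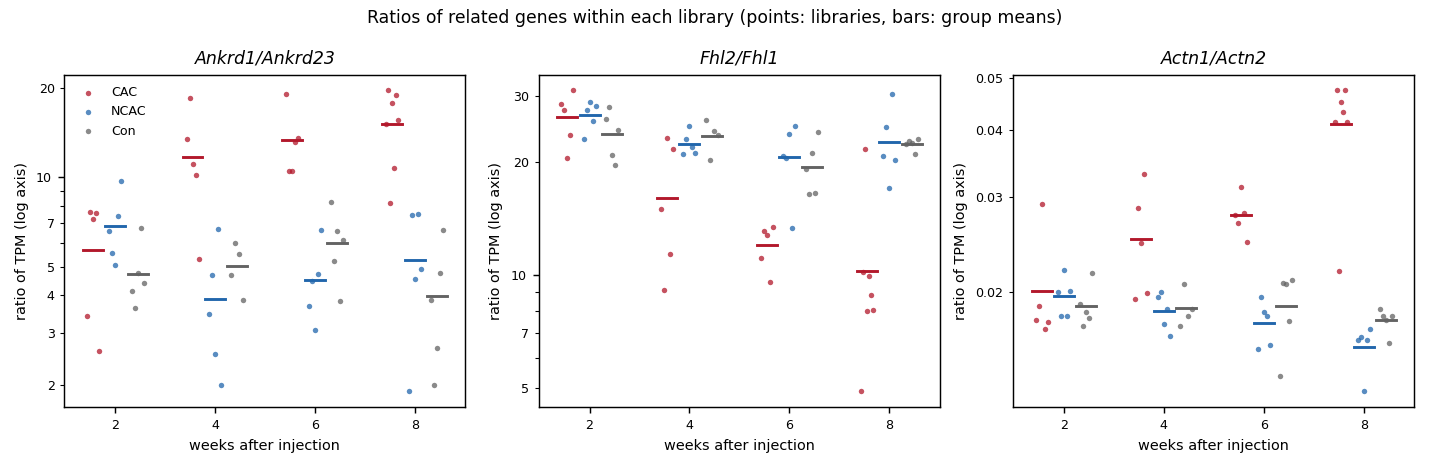
Ratio of TPM within each library for 3 pairs of related genes (log axis) against weeks after injection, with 1 point per library, bars at group means and the arms in colour. At week 6 the 5 CAC libraries lie wholly above Con for Ankrd1 to Ankrd23 and for Actn1 to Actn2, and wholly below for Fhl2 to Fhl1.

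Over the 12 group means many members ran together and others ran opposite, and within groups fewer ran together. Of the 45 pairs of members, 24 had a correlation above 0 over the group means, 23 of them above 0.5. Csrp3, Fhl2 and Tcap were there negative with every other member, with -0.79, -0.81 and -0.87 for Ankrd1, though Fhl2 with Actn2 was only -0.008. Over the deviations of the 61 libraries 4 pairs were above 0.5, and the median was 0.15. The highest was that of Fhl1 with Pdlim5 (r = 0.69), followed by Fhl1 with Actn2 (0.56), Pdlim5 with Actn1 (0.54) and Ankrd1 with Ankrd2 (0.53). Over the same deviations Fhl2 had negative correlations of -0.54 with Ankrd1 and -0.62 with Ankrd2, and of -0.13 with the third ankyrin-repeat gene, Ankrd23. These values share the libraries' scaling and are a description.

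Other genes of the same structures, from lists written by hand with earlier results of these data known, gave mixed counts at week 6. The counts and p-values of these lists are therefore a description and no independent support. The counts stand beside 50.5% of all tested genes called higher and 5.25% lower than Con as deposited, and 19.4% and 17.9% rescaled. Of 28 tested genes for Z-disc proteins and titin partners, 12 rose and 2 fell against Con as deposited, but 5 rose and 10 fell rescaled, with a median of 0.17 beside 0.21 over all genes. Des, the gene of the filament protein desmin, rose from 412 ± 51 to 733 ± 99.1 TPM (SD, n = 5 each; 0.83, adjusted p = 1.84e-07) and Myot (myotilin) by 0.89 (adjusted p = 0.0057), while Murc fell by 0.45 (adjusted p = 0.0011) and Synpo2 by 0.26 (adjusted p = 0.0306). Of 21 relatives of the LIM, PDZ-LIM and actinin families, 11 were higher and 1 lower, or 6 and 5 rescaled, with a median of 0.23. Fhl3, another gene of the Fhl family, rose from 3.92 ± 0.939 to 9.57 ± 2.46 TPM (SD, n = 5 each; 1.09, adjusted p = 2.94e-08), Ablim1 by 0.80 (adjusted p = 2.31e-09), and Lims1 fell by 0.25 (adjusted p = 0.0272).

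Of 24 genes for the SRF-MRTF and YAP-TEAD transcription factors, which read CArG and M-CAT elements, and their targets, 5 were higher and 0 lower, or 1 and 6 rescaled, with a median of 0.10. Fos, an immediate early target, rose by 1.29 (SE 0.41, adjusted p = 0.00751), and Mkl2 rose by 0.40 as deposited (adjusted p = 0.00274) but was not called rescaled (0.18, adjusted p = 0.142). Of 21 genes for integrins and costameres, which tie the Z-disc to the cell membrane, 12 were higher and 0 lower, or 6 and 6 rescaled, with a median of 0.24. Itga7, the laminin-binding integrin of muscle, rose by 0.98 (SE 0.10, adjusted p = 9.83e-11) and Cav3, the caveolin of muscle, by 0.86 (SE 0.09, adjusted p = 7e-11), and both passed rescaled. Of the members tested, Ankrd1, Ankrd23, Pdlim5 and Actn1 passed at week 6 under both scalings.

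At week 8, whose values chose the members, 60.8% of all tested genes were called against Con and 66.1% against NCAC. The CAC libraries lay wholly apart from those of Con in 5 of the 10 genes and from those of NCAC in 5, which describes the selection. The share of all genes lying apart in this way was not counted, and the percentages above are of limma calls. Without CAC replicate 3, Ankrd1, Ankrd2, Ankrd23, Pdlim5 and Actn1 differed from Con by 3.06, 1.01, 0.93, 0.78 and 1.14. Among the called genes with the 2 highest and 2 lowest differences of each related list, Nexn (0.65) had all 7 CAC libraries above those of Con. Pdlim7 (-0.49), Myocd (-0.68) and Itgb1bp2 (-0.65), the gene of the integrin-binding protein melusin, had all 7 below. For Pdlim3 (0.71) and Zyx (0.69), the gene of the adhesion protein zyxin, 6 CAC libraries lay above all of Con. The remaining Pdlim3 library lay below all of Con.

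No difference between NCAC and Con hearts was called by limma in the 10 genes. For Actn1 at week 8, all 5 NCAC libraries (11.3 ± 0.826 TPM) lay below all 5 Con libraries (13 ± 1.09 TPM, SD). That difference was -0.18 (SE 0.13). The Con libraries of week 8 entered the differences known when the names were picked. Results here that use them, at week 8 and over time in Con, are therefore a description. Limma called 0 of 10 members at week 2, 4, 6 and 8, with 0, 0, 0 and 0.71% of all genes called, and at an unadjusted p under 0.05 only Ankrd23 at week 2 (-0.43, SE 0.21) stood out of the 40 values. Rescaling, with 0, 0, 0 and 5.82% of all genes called, and array quality weights also called 0 members. For Ankrd1 the NCAC minus Con difference ranged from -0.43 to 0.34, each with an SE of 0.32 or 0.34. Over time, 0 of 10 members were called between week 2 and week 8 in Con (1.36% of all genes called) and 0 in NCAC (0% called). At an unadjusted p under 0.05 these were Csrp3 (-0.17, SE 0.08) and Actn2 (0.18, SE 0.07) in Con and Fhl1 in NCAC. With array quality weights 1 member was called in Con, and the share of all genes called with those weights was not taken.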

How the data were processed

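Per the labels' protocols, whole-heart RNA was taken up in Trizol, and stranded mRNA libraries were run on a NovaSeq sequencer. The authors deposited TPM in a single file for 47643 gene symbols in 62 libraries (24270 symbols were 0 throughout). Reads were mapped to mm10 per the submitters' processing notes, while neither aligner nor counter is given in the sources used here. Columns were tied to samples by title, and groups were taken from the labels.

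The 10 members and the gene lists were chosen with earlier results of these data known. Values were transformed as log2(TPM + 1), a gene needed 1 TPM or more in 5 or more libraries (12541 kept), and the 12 group means were fitted over 61 libraries by limma-trend (limma 3.58.1). R was version 4.3.3, with data.table at version 1.17.8. The 16 comparisons were adjusted by Benjamini-Hochberg within each, at a threshold of 0.05. Fold changes on this scale understate low genes. Con week 4 replicate 2 was left out by the rule that defined the members. Library depth was not given, so no interval on reads was made, and relative depth was recovered from the step between values (2744 genes, 90.8% of low values within 5% of 1 or 2 steps). Rescaling used the median of ratios over 14527 symbols.

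All 10 members were named. By rule, the text also names the 3 genes of at least 10 mean TPM with the highest within-group correlation to a member (predicted genes left out), and, of each related list, the called genes with the 2 highest and 2 lowest differences. Ratios within a library were described without a test. Promoters came from RefSeq and positions from GENCODE M21. The fit was tested on simulated data. Python 3.11.15, numpy 2.4.6, pandas 2.3.3, scipy 1.17.1 and matplotlib 3.10.9 were used. Alternatives were 0.1 as the added constant, testing 23360 genes without a filter or 8788 with one at 5 TPM, 2 rescalings, array quality weights, a replicate block, the compared groups only, all 62 libraries and leaving out each library.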

Additional observations from a re-analysis of the deposited data

Results flagged for a closer look

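Differences that changed from week 2 to week 6 were called by limma in Ankrd1, Pdlim5 and Actn1, where 13.1% of all genes were called. As the difference of the 2 CAC minus Con differences, they were 1.568 for Ankrd1, 0.528 for Pdlim5 and 0.612 for Actn1 on the log2(TPM + 1) scale. The Pdlim5 call was lost rescaled (limma adjusted p = 0.0812). The value of Ankrd2, 1.448, is a description, since this gene passed the filter only through the CAC libraries in which it is high and 1 other.

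Of 120 sets of values (10 genes in 12 groups), 12 held a library whose gap to the next was large for the range of its group by Dixon's test, where chance alone gives about 1 in 20. For Ankrd1 these were NCAC week 4 replicate 4 at 1557 TPM (median of the others 768) and Con week 4 replicate 5 at 674 TPM (1262). For Ankrd2 they were CAC week 2 replicate 3 at 0.827 TPM, NCAC week 6 replicate 2 at 0.563, NCAC week 8 replicate 3 at 1.33 and Con week 6 replicate 2 at 0.674. CAC week 2 replicate 3 was also high for Actn1, at 20.8 TPM (13.5). Other Actn1 values apart were CAC week 8 replicate 3 at 15.1 TPM (29.5) and Con week 6 replicate 1 at 9.48 TPM (13.1). The last were Ankrd23 in CAC week 2 replicate 2 at 207 TPM (381), Csrp3 in NCAC week 2 replicate 4 at 613 TPM (548) and Actn2 in CAC week 8 replicate 6 at 608 TPM (690).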

How the results depend on the processing

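No called value of the 10 genes changed sign under the alternatives run. The counts of called members, Ankrd2 included, changed by over 1.5 times as follows, and some smaller changes are given after them. Counts at week 8 describe the members' selection (60.8% of all genes called against Con and 66.1% against NCAC), and nothing about stability is read from them. Under median-of-ratios rescaling 0.447, 15.4 and 37.4% of all genes were called against Con at weeks 2, 4 and 6, and 0.734, 18 and 40.6% against NCAC. For the other alternatives this share was not taken, so their member counts cannot be set against all genes. With all 62 libraries, CAC against Con gave 0 higher at week 2, 7 at week 4 and 1 lower at week 8, CAC against NCAC gave 0 higher at week 2, 0 lower at week 6 and 1 lower at week 8, and week 6 minus week 2 gave 1 higher. Fitting the compared groups only gave 0 higher at week 2 against Con and against NCAC, 1 lower at week 8 against Con and 1 lower for week 6 minus week 2. Median-of-ratios rescaling gave 0 higher at week 2 against Con, 1 lower at week 4 and 3 lower at week 6 against either arm, and 4 lower at week 8 against NCAC. Rescaling without mitochondrial and haemoglobin genes gave 0 higher at week 2 against either arm, 2 lower (Con) and 1 lower (NCAC) at week 4, 3 lower at week 6 against either, and 4 lower at week 8 against NCAC. No filter gave 0 higher at week 2 against either arm and 0 lower at week 6 against NCAC. Array quality weights gave 1 lower for week 6 minus week 2, 3 higher for week 6 minus week 4 and 1 lower in Con from week 2 to week 8. Among smaller changes, both rescalings and the fit with all 62 libraries gave 5 higher in place of 7 at week 6 against either arm, without Fhl1 and Actn2, and both rescalings gave 3 higher in place of 4 at week 4 against Con and for week 6 minus week 2, and 3 lower in place of 2 at week 8 against Con.

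With the replicate number as a block, 0 members were higher at week 2 against Con, and 157 of 160 gene results kept their side of the threshold. The correlations between deviations of same-numbered libraries varied by comparison. For CAC and Con at week 6 they were -0.183 to 0.0441 over 5 pairs. For CAC and NCAC they were -0.0899 to 0.412 at week 4 and -0.119 to 0.219 at week 2, each with 3 of 5 pairs over 0.1. Leaving out each library in turn gave, against Con, 0 to 2 higher at week 2, 3 to 4 higher and 0 to 1 lower at week 4, 7 higher at week 6, 5 to 6 higher and 1 to 3 lower at week 8, and 3 to 4 higher for week 6 minus week 2. Against NCAC it gave 0 to 1 higher at week 2, 4 higher and 0 to 1 lower at week 4, 7 higher and 0 to 2 lower at week 6, and 5 to 6 higher and 2 to 3 lower at week 8. Ankrd2 could not be fitted under the 5 TPM filter. With 2 to 17 reads per library in the Con hearts of week 6, its level there is known only roughly. The causes of these changes were not tested.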
